A study of Mus musculus with 8 samples.

Results

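This section describes 49 genes that fold, move and check proteins in the endoplasmic reticulum (ER), measured in whole lungs of mice with an inducible human TGF-β1 transgene and of wild-type mice. The genes were taken from a fixed list of names with no filter on their values, but the list was chosen with earlier results of these data known. They are 49 of 25733 genes named on the arrays. A probe was found for 46 of them and 45 could be tested. P4hb, Ero1l and Sec61g had no probe under these names. The probe of Sec61b, the small β subunit of the translocation channel, had no value on any TGFb1-Tg array, while its sample intensity was 19.81 to 22.05 on the 4 WT arrays.

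RNA came from 4 TGFb1-Tg lungs and 4 WT lungs of mice on the B6J background, 10 weeks old per the labels, and each lung was hybridised on 1 Agilent array with 2 colours. In TGFb1-Tg mice doxycycline in the drinking water at 1 mg/ml switches on active human TGF-β1, and the file headers give 14 days of doxycycline for the TGFb1-Tg lungs and 14 days of water for the WT lungs. The labels call the WT treatment control and give 1 doxycycline protocol, with harvests between days 2 and 14, for all samples, so they do not say what the WT mice drank. The promoter that drives the transgene is not given in the sources used here. The lung RNA was in Cy5 and a pool was in Cy3 on every array, and the measure is the log2 ratio of sample over pool intensity. The labels name one combined WT pool for all 8 arrays, whereas the headers pair the TGFb1-Tg arrays with pooled RNA of 4 water-treated transgenic lungs and the WT arrays with pooled RNA of 4 water-treated WT lungs. If the headers are right, a difference between the groups is induced over uninduced transgenic lung, set against WT lung over its own pool, and doxycycline cannot be told apart from the induction of the transgene. Ratios of the ER genes were therefore read beside the sample channel alone.

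The ER takes in most secreted and membrane proteins through the Sec61 channel, where signal peptidase trims them and chaperones and disulfide exchange enzymes fold them. Proteins that fail are sent back to the cytosol for degradation, while folded ones leave in vesicles with a COPII coat, and KDEL receptors return escaped chaperones. When unfolded protein builds up, the sensors IRE1 (Ern1), PERK (Eif2ak3) and ATF6 (Atf6) start the unfolded protein response, whose transcription factors XBP1, ATF4, ATF6 and CHOP (Ddit3) raise chaperones, degradation factors or stress genes. Lungs that lay down collagen load this machinery, since collagen chains are folded in the ER before export.

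The Tgfb1 probe separated the groups, with a sample intensity of 1.32 to 1.70 in TGFb1-Tg lungs and 0.61 to 0.76 in WT lungs; whether it reads the human transgene was not tested. The pools differed between the sets of arrays, so the single pool named by the labels was not used on all of them. Xist, a transcript of female cells, was 0.01 to 0.02 in the pool of the TGFb1-Tg arrays and 1.04 to 1.13 in that of the WT arrays. In the sample channel Xist was 0.01 to 0.02 in TGFb1-Tg lungs and 4.6 in WT lung 1, and the brighter probe of the Y-linked Ddx3y was 8.45 to 10.35 in TGFb1-Tg lungs and 0.04 in WT lung 1. Between 39039 and 39281 probes were measured per array, and the number of arrays limits the precision. The headers number the lungs of each group, and p-values measure the spread between these lungs, which may be partly technical.

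In TGFb1-Tg lungs 22 of the 45 genes tested were higher, 8 were lower and 15 were not called (limma, adjusted p under 0.05 over all 25646 genes tested). That is 48.9% higher and 17.8% lower, against 19.0% higher and 19.8% lower over all genes. The median log2 difference of these genes was 0.10, against 0.00 over all genes. The genes called higher were spread over folding, translocation, degradation and export, and none was a stress sensor or a stress transcription factor. Of the 8 called lower, 4 were stress sensors or transcription factors and 2 were degradation factors. Without WT lung 1, which stood apart in Xist, 20 were called higher and 8 lower.

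On arrays with no missing value, all 4 TGFb1-Tg ratios were above all 4 WT ratios for 22 of 43 of these genes, against 18.2% of all genes, and below them for 6, against 19.0%. Ratios of these genes ran from -0.69 to 0.97 in TGFb1-Tg lungs and from -0.24 to 0.21 in WT lungs. If the WT pool held these same WT lungs, as its header allows, WT ratios would be small by design. Whether it did is not stated. The median SD between lungs was 0.05 in TGFb1-Tg lungs and 0.06 in WT lungs. The largest fold, in Kdelr3, was 1.92. With probes of a mean intensity under 0.1 left out, the counts were again 22 higher, against 27.4% of all genes, and 8 lower, against 29.4%.

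The sample channel alone, quantile normalized over all 8 arrays, leaves the pools out, uses the same lungs and was added after the data were seen. It sets TGFb1-Tg lungs against WT lungs directly, so by the headers it is not the same contrast as the ratio. In that comparison 23 of the 45 genes were called higher, against 20.6% of all genes, and 3 were called lower, against 13.2%. Both comparisons called 17 genes higher and 3 lower, and between them no gene was called in opposite directions. The 3 called lower in both were Ddit3, Herpud1 and Pdia5. With the sample channel centred only on its median, none of the 45 was called lower and 36 were called higher. In that form Dnajb9 (0.57) and Xbp1 (0.42), called lower over the pool, were called higher. Bright genes as a whole shifted upward there (median 0.48 for genes at an intensity of 1 or more). Below, the sample channel alone means its quantile normalized form unless stated. Of the 8 genes called lower over the pool, 5 were not called in the sample channel.

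**Figure D1:**
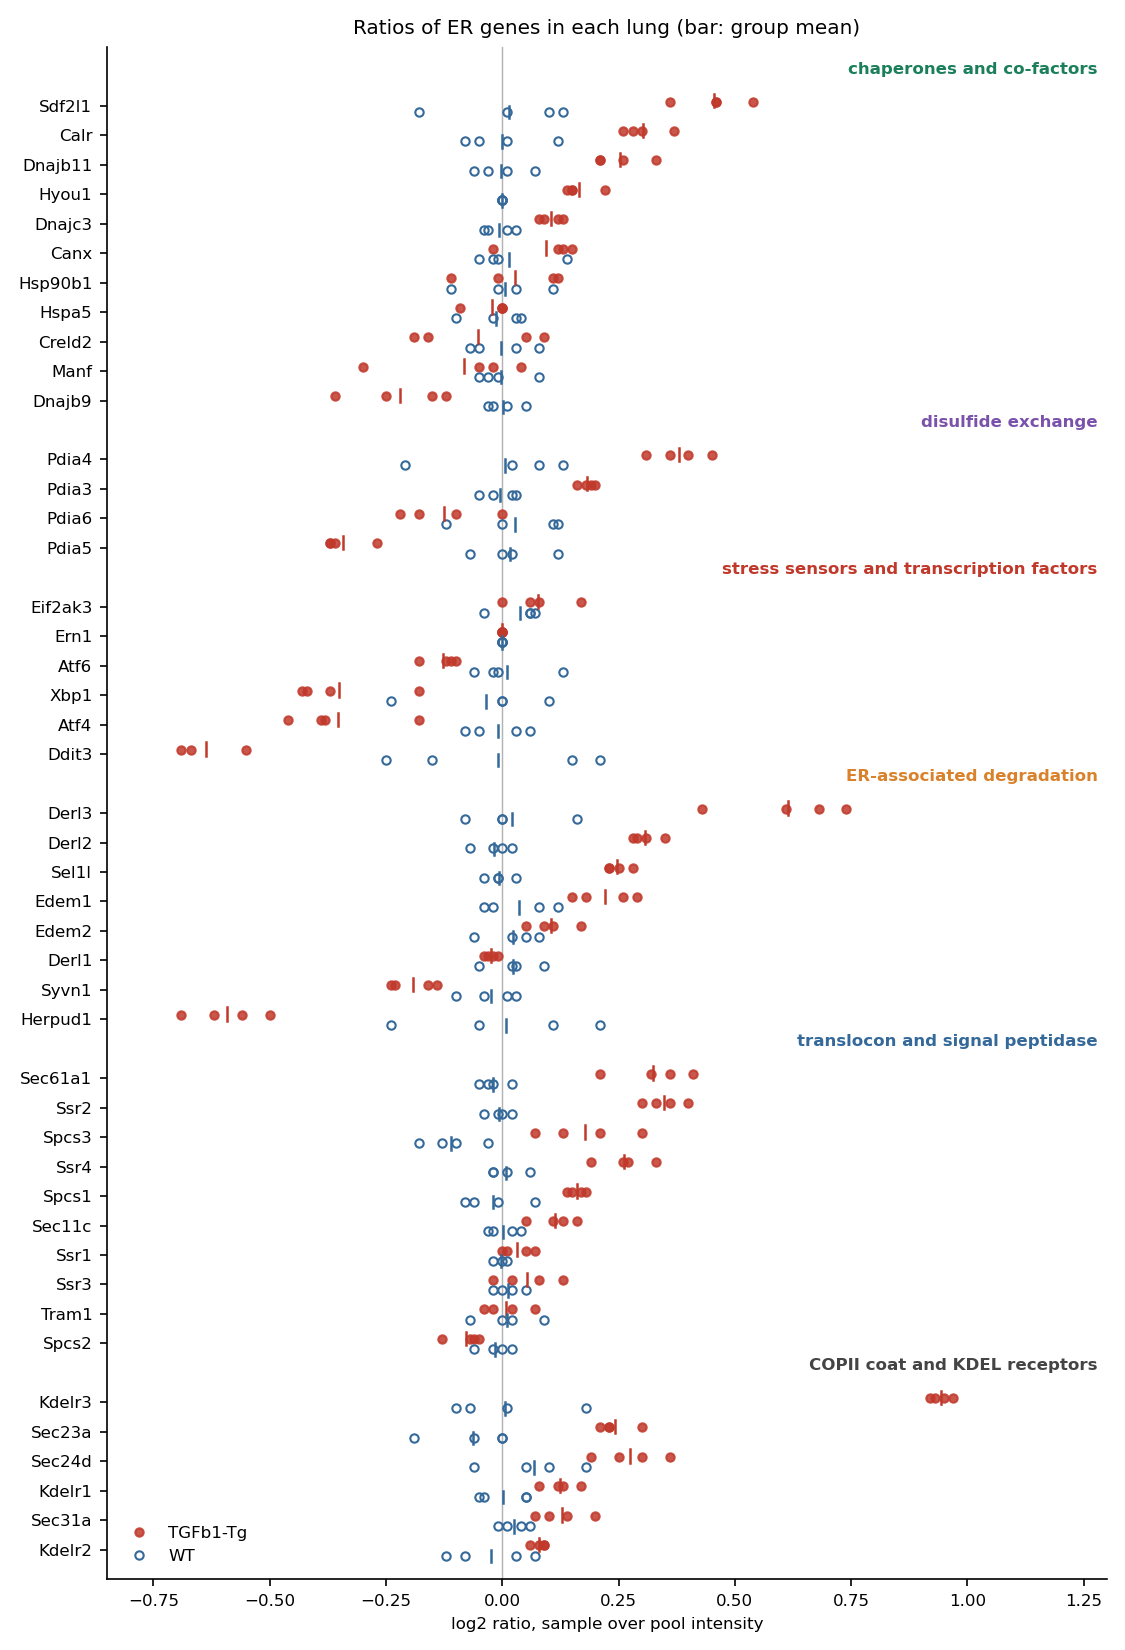
Log2 ratio of sample over pool intensity (x axis) of the 45 genes tested, grouped by role; filled points are the 4 TGFb1-Tg lungs, open points the 4 WT lungs, and vertical bars the group means. Kdelr3 lies at 0.92 to 0.97 in TGFb1-Tg lungs, Ddit3 and Herpud1 lie at -0.69 to -0.50, and WT ratios lie near 0. The small WT ratios may follow from the make-up of the WT pool.

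The largest difference among these genes was in Kdelr3, a KDEL receptor that returns escaped ER chaperones from the Golgi. Its log2 ratio was 0.97, 0.92, 0.93 and 0.95 in TGFb1-Tg lungs, against 0.01, -0.10, -0.07 and 0.18 in WT lungs. The groups were far apart, with a difference of 0.94 ± 0.06 (SE, n = 4 each, adjusted p = 4.18e-05). Its sample intensity was 3.43 to 3.91 in TGFb1-Tg lungs and 1.65 to 2.07 in WT lungs, while its pool intensity was 1.78 to 2.01 on TGFb1-Tg arrays and 1.73 to 2.03 on WT arrays. The pools were thus alike for this gene and the lungs were not, and the sample channel alone gave 0.78. The other KDEL receptors moved less: Kdelr1 was 0.12 ± 0.03 higher (adjusted p = 0.024), and Kdelr2 was not called at 0.10 ± 0.04.

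The COPII coat buds vesicles from the ER, and its genes on this list were higher as well. Of the 6 coat and receptor genes, 5 were called higher (83.3%) and none lower, against 19.0% and 19.8% of all genes. Their median difference was 0.16. Sec23a, part of the inner coat, had ratios of 0.30, 0.23, 0.23 and 0.21 in TGFb1-Tg lungs and 0.00, 0.00, -0.19 and -0.06 in WT lungs (difference 0.31 ± 0.05, adjusted p = 0.002). Sec24d, an inner coat subunit that binds cargo, had 0.36, 0.25, 0.19 and 0.30 in TGFb1-Tg lungs and 0.10, 0.05, -0.06 and 0.18 in WT lungs. The lowest TGFb1-Tg value of Sec24d, 0.19, was just above the highest WT value, 0.18, and its difference was 0.20 ± 0.06 (adjusted p = 0.0314). Sec31a, of the outer coat, was 0.10 ± 0.03 higher.

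The weaker calls in this group did not hold without single arrays. Sec24d was no longer called without TGFb1-Tg lung 1, 2 or 4 or WT lung 1, 2 or 3. Sec31a lost its call without TGFb1-Tg lung 1 or 4 or WT lung 2, 3 or 4. Kdelr1 lost it without TGFb1-Tg lung 2, 3 or 4 or WT lung 1 or 3. Between 2 and 4 of the 6 genes were called higher when 1 array was left out, and Kdelr3 and Sec23a were called each time.

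Promoter sequences bear on which of these genes carry the elements that unfolded protein response factors read. RefSeq promoters (GRCm38.p6, 250 bases before to 50 after the start) were found for 39 of the 49 genes and searched on both strands. The ER stress response element, read by ATF6 and XBP1 with NF-Y, was searched as CCAAT, 9 bases of any kind and CCACG; it was in 9 of 39 promoters (23.1%), against 37 of 27025 genes (0.137%). The ERSE-II element, ATTGG, 1 base and CCACG, was in 2 (5.13%, against 0.0444%). The core of the unfolded protein response element, TGACGTGG, was in 3 (7.69%, against 0.714%), and the amino acid response element TGATGNAAT, of the kind bound by ATF4 and CHOP, was in none, against 1.08% of all genes. At a share of 1.08% few matches would fall in 39 promoters, so finding none of the amino acid response element says little. The counts over all genes include these genes. The list also holds genes that these factors are known to raise, so the shares are a description and not a test. A match is a description of these letters and not a bound site.

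The 3 promoters with the TGACGTGG core were those of Kdelr3, Sec23a and Sec24d, all of which were called higher. They are shown with 20 bases on each side, 5′ to 3′ on the strand of the gene, the match in capitals; in Kdelr3 the match is on the opposite strand and reads CCACGTCA. They lie at chr15:79516358-79516405 (plus strand) for Kdelr3, chr12:59011984-59012031 (minus strand) for Sec23a and chr3:123267450-123267497 (plus strand) for Sec24d. These were chosen for display after the values were seen.
Kdelr3: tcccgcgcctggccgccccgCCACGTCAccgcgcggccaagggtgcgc
Sec23a: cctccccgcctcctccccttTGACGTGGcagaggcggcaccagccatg
Sec24d: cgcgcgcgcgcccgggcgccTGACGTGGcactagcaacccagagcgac

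The ER stress response element was found mostly in chaperone promoters, and the genes that carry it were called in both directions or not at all. It was in 6 of the 9 chaperone and co-factor promoters found, those of Hspa5, Hsp90b1, Calr, Canx, Dnajc3 and Creld2, and in those of Pdia6, Syvn1 and Derl3. Of these 9 genes, 3 were called higher, 1 lower and 5 not at all, with a median difference of 0.03. In the 5 chaperone and disulfide exchange genes with the largest differences, and in Hspa5, Derl3 and Syvn1, chosen after their values were seen, the element reads as below, with 20 bases on each side. In Calr, Creld2 and Derl3 it is on the opposite strand, so the capitals begin with CGTGG and end with ATTGG.
Calr: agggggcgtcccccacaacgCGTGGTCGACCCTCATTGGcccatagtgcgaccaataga
Dnajc3: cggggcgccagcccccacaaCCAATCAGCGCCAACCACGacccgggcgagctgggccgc
Derl3: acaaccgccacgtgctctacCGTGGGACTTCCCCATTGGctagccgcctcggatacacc
Hspa5: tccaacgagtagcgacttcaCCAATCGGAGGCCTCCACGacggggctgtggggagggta
Canx: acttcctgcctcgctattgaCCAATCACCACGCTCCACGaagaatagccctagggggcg
Creld2: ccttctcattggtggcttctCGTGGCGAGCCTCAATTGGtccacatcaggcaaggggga
Pdia6: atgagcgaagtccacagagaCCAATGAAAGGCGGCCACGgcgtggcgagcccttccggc
Syvn1: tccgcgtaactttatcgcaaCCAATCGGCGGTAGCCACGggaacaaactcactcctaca

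Calr, Dnajc3 and Derl3 were called higher, Syvn1 was called lower, and Hspa5, Canx, Creld2 and Pdia6 were not called. The windows lie at chr8:84847055-84847113 (minus strand) for Calr, chr14:118937807-118937865 (plus) for Dnajc3 and chr10:75893222-75893280 (plus) for Derl3. Those of Hspa5, Canx and Creld2 lie at chr2:34772005-34772063 (plus), chr11:50325780-50325838 (minus) and chr15:88819500-88819558 (plus). Those of Pdia6 and Syvn1 lie at chr12:17266471-17266529 (plus) and chr19:6046512-6046570 (plus). The ERSE-II element was in Dnajb11, called higher, and Herpud1, called lower, so neither element went with 1 direction; their windows, chosen for this contrast, lie at chr16:22857832-22857882 and chr8:94386357-94386407, both on the plus strand.
Dnajb11: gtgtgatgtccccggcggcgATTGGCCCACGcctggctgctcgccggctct
Herpud1: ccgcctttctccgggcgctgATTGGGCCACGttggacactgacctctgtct

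Of 11 chaperones and co-factors, 5 were called higher (45.5%), 1 lower (9.09%) and 5 neither way, against 19.0% and 19.8% of all genes. Their median difference was 0.08. Sdf2l1, a co-factor of the ER J-proteins that keeps unfolded chains soluble, had ratios of 0.54, 0.46, 0.46 and 0.36 in TGFb1-Tg lungs and 0.01, -0.18, 0.13 and 0.10 in WT lungs. Calr, the lectin chaperone calreticulin, had 0.37, 0.26, 0.30 and 0.28 in TGFb1-Tg lungs and -0.05, -0.08, 0.12 and 0.01 in WT lungs. Dnajb11, a J-protein that feeds clients to BiP, had 0.33, 0.26, 0.21 and 0.21 in TGFb1-Tg lungs and -0.03, -0.06, 0.01 and 0.07 in WT lungs. In each of these genes every TGFb1-Tg lung was above every WT lung.

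The differences were 0.44 ± 0.07 for Sdf2l1 (adjusted p = 0.00299), 0.30 ± 0.05 for Calr (adjusted p = 0.00228) and 0.25 ± 0.04 for Dnajb11 (adjusted p = 0.00174). In the sample channel alone Sdf2l1 gave 0.67 and Dnajb11 0.52, both called, while Calr gave 0.20 and was not called. Dnajc3, which also restrains PERK, was 0.11 ± 0.02 higher. Hyou1, an exchange factor of BiP, was 0.17 ± 0.02 higher, but its probe was dim, with intensities of 0.08 to 0.14 in values deposited in steps of 0.01. All 4 WT ratios of Hyou1 were 0.00 and the TGFb1-Tg ratios of 0.14 to 0.22 were 1 or 2 such steps.

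Hspa5, which encodes BiP, the main ER chaperone and the textbook marker of ER stress, was not called. Its ratios, the mean of its probes, were 0.00, -0.09, 0.00 and 0.00 in TGFb1-Tg lungs and -0.02, -0.10, 0.03 and 0.04 in WT lungs (difference -0.01 ± 0.04, adjusted p = 0.891). The groups overlapped, but the measurement was poor. The bright probe of Hspa5 had no value on TGFb1-Tg arrays 1 and 4 and elsewhere reached 96.1% of the highest intensity of an array. Its sample intensity was 22.03 and 23.23 in TGFb1-Tg lungs 2 and 3 and 15.81 to 18.66 in WT lungs. The other probe went the other way, at 0.11 to 0.23 in TGFb1-Tg lungs and 0.27 to 0.51 in WT lungs. The sample channel alone, with TGFb1-Tg lungs 2 and 3 only, gave -0.36 ± 0.18 for Hspa5 and did not call it. Hsp90b1, the ER member of the HSP90 family, had ratios of -0.11, 0.11, 0.12 and -0.01 in TGFb1-Tg lungs and -0.01, -0.11, 0.11 and 0.03 in WT lungs. Its difference over the pool was 0.03 ± 0.07 (adjusted p = 0.823), and in the sample channel alone it was called higher at 0.29 ± 0.09. The probe of Hsp90b1 reached 85.2% of the highest intensity of an array.

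Dnajb9, a J-protein that is induced by XBP1 and holds IRE1 inactive, was the only chaperone gene called lower. Its ratios were -0.12, -0.36, -0.15 and -0.25 in TGFb1-Tg lungs and -0.03, -0.02, 0.01 and 0.05 in WT lungs (difference -0.22 ± 0.06, adjusted p = 0.0178). The call was lost without TGFb1-Tg lung 4 or WT lung 4, and the sample channel alone gave 0.11, not called. Centred only on its median, that channel called Dnajb9 higher at 0.57. The pool of the TGFb1-Tg arrays stood 0.33 above that of the WT arrays for Dnajb9 after quantile normalization, so the ratio and the lung intensities pointed in different directions. Canx (0.08 ± 0.06), Creld2 (-0.05 ± 0.08) and Manf (-0.08 ± 0.08), a membrane lectin and a pair of secreted stress proteins, were not called; the sample channel alone called Manf higher at 0.41.

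**Figure D2:**
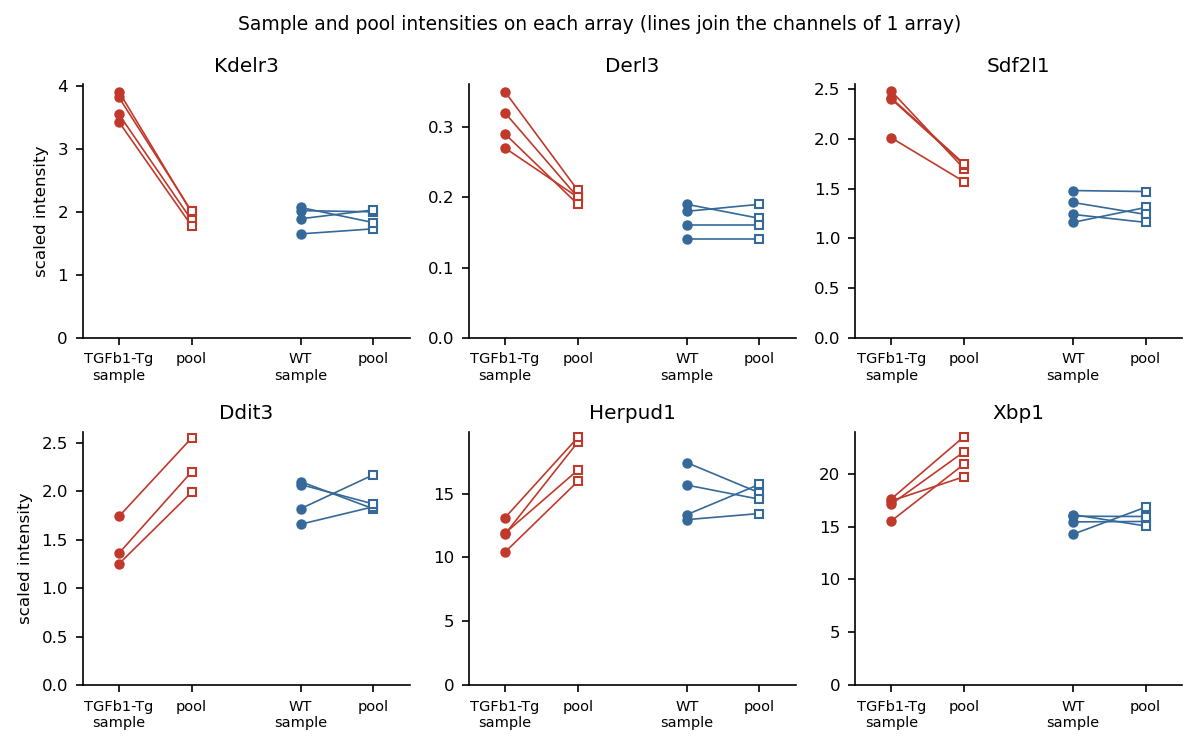
Scaled intensity (linear y axis from 0) of 6 genes in the sample and the pool channel of each array, TGFb1-Tg arrays left and WT arrays right in each panel; lines join the channels of 1 array. In Kdelr3 only the TGFb1-Tg samples stand apart, in Herpud1 and Ddit3 the TGFb1-Tg samples lie below their pools, and in Xbp1 the pools of the TGFb1-Tg arrays, at 19.74 to 23.54, are the highest values.

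Among disulfide exchange enzymes, which form and shuffle cysteine bonds, members moved both ways. Of 4 tested, Pdia4 and Pdia3 were called higher, Pdia5 was called lower, and Pdia6 was not called at -0.15 ± 0.07. Pdia4, which works in complexes with BiP, had ratios of 0.45, 0.36, 0.40 and 0.31 in TGFb1-Tg lungs and 0.08, -0.21, 0.13 and 0.02 in WT lungs (difference 0.38 ± 0.08, adjusted p = 0.00635). Pdia3, the partner of calreticulin and calnexin for glycoproteins, had 0.19, 0.18, 0.20 and 0.16 in TGFb1-Tg lungs and -0.05, -0.02, 0.02 and 0.03 in WT lungs (difference 0.19 ± 0.02, adjusted p = 0.000481). Pdia5 had -0.36, -0.37, -0.27 and -0.37 in TGFb1-Tg lungs and 0.02, -0.07, 0.12 and 0.00 in WT lungs. The groups of Pdia5 did not overlap, its difference was -0.36 ± 0.05 (adjusted p = 0.000788), and the quantile normalized sample channel called it lower at -0.32. Centred only on its median, that channel gave 0.09 for Pdia5, with the sign turned and no call.

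None of the 6 stress sensors and stress transcription factors was called higher over the pool. Called lower were 4 (66.7%, against 19.8% of all genes), with a median difference of -0.23. Leaving out 1 array gave 2 to 4 lower. The sample channel centred only on its median called 2 of the 6 higher and 0 lower, and quantile normalized ratios called 0 either way. Ddit3, the stress transcription factor CHOP, had ratios of -0.55, -0.69 and -0.67 in TGFb1-Tg lungs 1, 2 and 4 and no value in lung 3, against -0.25, 0.21, -0.15 and 0.15 in WT lungs. Every measured TGFb1-Tg lung was below every WT lung, and the difference was -0.63 ± 0.13 from 3 TGFb1-Tg and 4 WT lungs (adjusted p = 0.0101). The sample intensity of Ddit3 was 1.25, 1.36 and 1.74 in TGFb1-Tg lungs and 1.66 to 2.10 in WT lungs, and the quantile normalized sample channel called it lower at -0.56. The same channel centred only on its median gave -0.14 and did not call Ddit3. Its pool intensities were 1.99 to 2.55 on TGFb1-Tg arrays and 1.82 to 2.17 on WT arrays.

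Atf4, the factor translated when PERK or its sister kinases act, had ratios of -0.38, -0.39, -0.46 and -0.18 in TGFb1-Tg lungs and 0.03, -0.08, -0.05 and 0.06 in WT lungs. The groups did not overlap and the difference was -0.34 ± 0.06 (adjusted p = 0.00499). Both Atf4 probes had negative ratios on every TGFb1-Tg array, but the sample channel alone gave -0.17 ± 0.08 and did not call it. Regulation of ATF4 is largely translational, which arrays do not see.

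Xbp1, the factor made active when IRE1 splices its RNA, had ratios of -0.42, -0.37, -0.18 and -0.43 in TGFb1-Tg lungs and -0.24, 0.00, 0.10 and 0.00 in WT lungs. The groups overlapped, and the difference was -0.31 ± 0.09 (adjusted p = 0.0265). The call was lost without TGFb1-Tg lung 1, 2 or 4 or WT lung 2, 3 or 4, and the sample channel alone gave a difference of 0.15 ± 0.10 in the other direction (adjusted p = 0.31, range over all alternatives 0.00811 to 0.562). Centred only on its median, that channel called Xbp1 higher at 0.42. The sample intensity of Xbp1 was 15.55 to 17.64 in TGFb1-Tg lungs and 14.29 to 16.15 in WT lungs. The pool was 19.74 to 23.54 on TGFb1-Tg arrays and 15.07 to 16.85 on WT arrays. Set against the WT arrays, the lower ratio of Xbp1 thus went with a brighter pool and not with dimmer lungs. By the headers that pool is uninduced transgenic lung, and every TGFb1-Tg lung lay below it. The spliced form of Xbp1 was not measured separately.

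Of the sensors, Atf6 was called lower and PERK and IRE1 were not called over the pool. Atf6 had ratios of -0.11, -0.18, -0.12 and -0.10 in TGFb1-Tg lungs and 0.13, -0.06, -0.01 and -0.02 in WT lungs (difference -0.14 ± 0.04, adjusted p = 0.0366). The call of Atf6 was lost without any 1 TGFb1-Tg lung and without WT lung 3 or 4, and its probes disagreed in size, the brighter alone giving -0.24. Eif2ak3, which encodes PERK, had 0.17, 0.00, 0.06 and 0.08 in TGFb1-Tg lungs and -0.04, 0.06, 0.07 and 0.06 in WT lungs (difference 0.04 ± 0.04, adjusted p = 0.486). In the sample channel alone Eif2ak3 was called higher at 0.26. Ern1, which encodes IRE1, had a ratio of 0.00 in all 8 lungs, with intensities of 0.06 to 0.09 that lie within a few steps of the deposited scale, so no difference was detectable for it.

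Degradation factors ranged from the second largest gain to the second largest loss on the list. Of 8 genes, 4 were called higher and 2 lower, with a median difference of 0.13. Derl3, a derlin of the retrotranslocation complex, had ratios of 0.74, 0.43, 0.68 and 0.61 in TGFb1-Tg lungs and 0.00, 0.16, -0.08 and 0.00 in WT lungs (difference 0.59 ± 0.08, adjusted p = 0.000926). Its probe was modest, at 0.27 to 0.35 in TGFb1-Tg lungs and 0.14 to 0.19 in WT lungs, and the sample channel alone gave 1.06. Derl2, a related derlin, had 0.31, 0.28, 0.29 and 0.35 in TGFb1-Tg lungs and -0.02, 0.00, -0.07 and 0.02 in WT lungs (difference 0.33 ± 0.03, adjusted p = 9.29e-05). Derl1, the third derlin, was not called at -0.05 ± 0.03.

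Herpud1, a membrane factor that gathers the degradation complex and is strongly induced by ER stress, was lower. Its ratios were -0.50, -0.69, -0.56 and -0.62 in TGFb1-Tg lungs and -0.24, 0.21, -0.05 and 0.11 in WT lungs (difference -0.60 ± 0.10, adjusted p = 0.00269). Sample intensities of Herpud1 were 10.42 to 13.12 in TGFb1-Tg lungs and 12.96 to 17.43 in WT lungs, and the quantile normalized sample channel called it lower at -0.39. Centred only on its median, that channel gave -0.04 and did not call Herpud1. The pool of Herpud1 differed too, and was 15.96 to 19.40 on TGFb1-Tg arrays and 13.44 to 15.73 on WT arrays. The WT ratios of Herpud1 and Ddit3 followed the same order, lowest in WT lung 1 and highest in WT lung 2.

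Syvn1, the ubiquitin ligase HRD1, was called lower and its partner Sel1l higher. Syvn1 had ratios of -0.14, -0.24, -0.16 and -0.23 in TGFb1-Tg lungs and -0.10, 0.03, -0.04 and 0.01 in WT lungs (difference -0.16 ± 0.04, adjusted p = 0.0105). The call rested on a dim second probe, listed under the older name D530017H19Rik at intensities of 0.09 to 0.18, and the bright probe alone gave -0.09, not called. Syvn1 was at 0.05 in the sample channel alone. Sel1l, the adaptor that holds HRD1, was 0.26 ± 0.02 higher (adjusted p = 9.63e-05), and Edem1, which directs misfolded glycoproteins to degradation, was 0.18 ± 0.05 higher, a call lost without TGFb1-Tg lung 1 or WT lung 2. Edem2 was not called at 0.08 ± 0.04.

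Of 10 translocon and signal peptidase genes tested, 6 were called higher (60.0%) and none lower, against 19.0% and 19.8% of all genes. Their median difference was 0.15, and the sample channel alone called 7 higher (70.0%, against 20.6% of all genes). Ssr2, a subunit of the translocon-associated TRAP complex, had ratios of 0.40, 0.36, 0.30 and 0.33 in TGFb1-Tg lungs and -0.01, 0.02, 0.00 and -0.04 in WT lungs (difference 0.35 ± 0.02, adjusted p = 5.9e-05). Sec61a1, the pore of the channel, had 0.36, 0.32, 0.21 and 0.41 in TGFb1-Tg lungs and 0.02, -0.05, -0.02 and -0.03 in WT lungs (difference 0.35 ± 0.04, adjusted p = 0.000639). Spcs3, a signal peptidase subunit, had 0.21, 0.30, 0.07 and 0.13 in TGFb1-Tg lungs and -0.03, -0.10, -0.18 and -0.13 in WT lungs (difference 0.29 ± 0.06, adjusted p = 0.00598). None of these groups overlapped. Leaving out 1 array kept 6 calls of higher in this role each time, and Spcs2 was called lower without WT lung 4.

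Subunits of the same complex differed in whether they were called. In the TRAP complex Ssr2 and Ssr4 (0.25 ± 0.03) were called higher, whereas Ssr1 (0.04 ± 0.02, 3 WT lungs) and Ssr3 (0.04 ± 0.04) were not. In signal peptidase Spcs3, Spcs1 (0.18 ± 0.03) and the catalytic Sec11c (0.11 ± 0.03) were called higher, whereas Spcs2 was not called at -0.07 ± 0.02. Tram1, which assists chains entering the channel, was not called at 0.00 ± 0.04. The bright probes of Ssr3 and Tram1 reached 81.7% and 72.2% of the highest intensity of an array, and the sample channel alone called both higher, at 0.34 and 0.24. Whether subunits differed from each other was not tested.

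**Figure D3:**
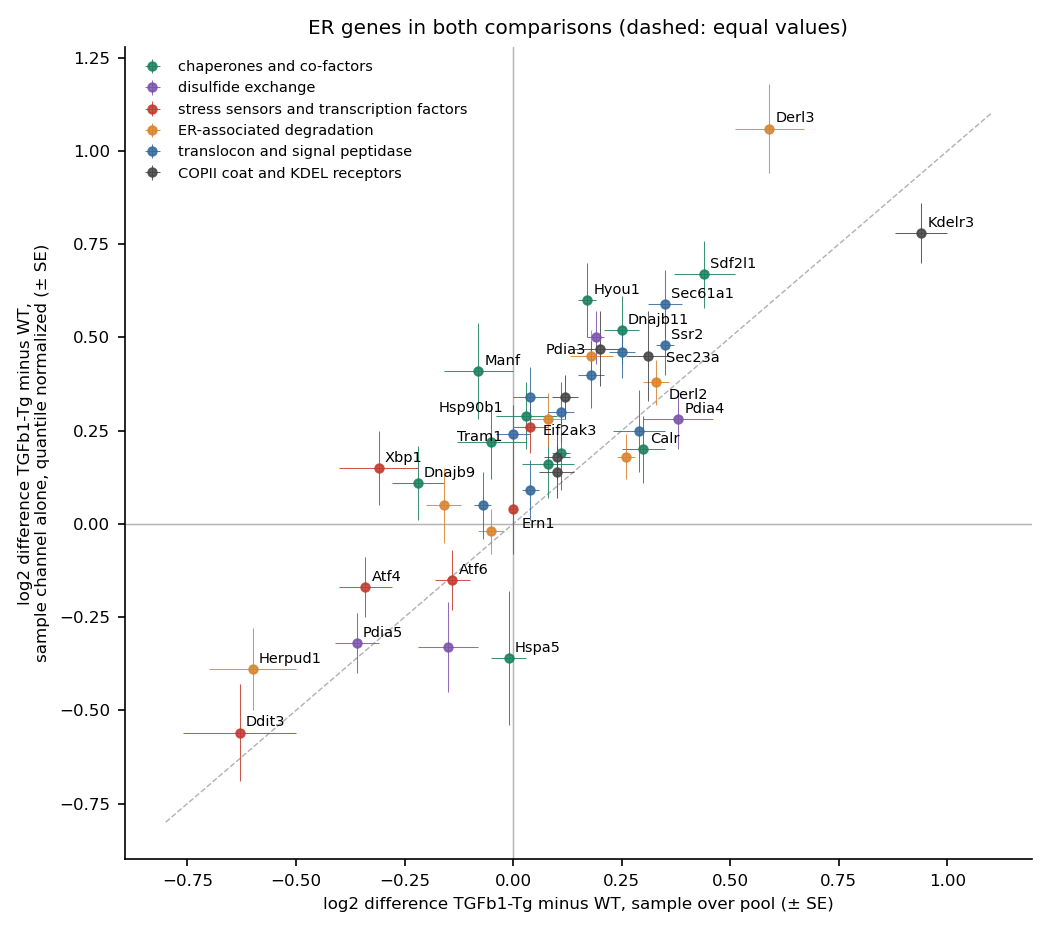
Log2 difference of each of the 45 genes, TGFb1-Tg minus WT, over the pool (x axis) and in the sample channel alone after quantile normalization (y axis), with standard errors; colours are roles and the dashed line marks equal values. Kdelr3, Derl3 and Sdf2l1 are high on both axes, Ddit3, Herpud1 and Pdia5 are low on both, and Xbp1 and Dnajb9 lie left of 0 and above 0.

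Of the 6 roles, the stress regulators had the lowest median ratio on every TGFb1-Tg array. The median ratio of the 5 stress sensors and transcription factors measured on all arrays was -0.11, -0.18, -0.12 and -0.10 in TGFb1-Tg lungs and 0.00 in each WT lung. Ddit3, with a missing value, is not in this median. In each TGFb1-Tg lung the median was the ratio of Atf6, whose call was lost when some single arrays were left out. Ern1, at 0.00 in every lung from a dim probe, lay at the WT median. That of the translocon and signal peptidase was 0.18, 0.16, 0.08 and 0.13 in TGFb1-Tg lungs and between -0.02 and 0.00 in WT lungs. That of the coat and KDEL receptors was 0.25, 0.17, 0.18 and 0.18 in TGFb1-Tg lungs and between -0.06 and 0.04 in WT lungs. The small WT medians may follow from the make-up of the WT pool. In the sample channel alone the median difference of the stress regulators was -0.06, with 1 gene called each way, against 0.32 for the translocon and signal peptidase and 0.39 for the coat and KDEL receptors. The order of the roles by median was the same in both comparisons, while the stress regulators lay closer to 0 in the sample channel.

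Other genes of the secretory pathway were taken from lists that hold no member of the group above. Of 136 tested, 45 were called higher and 21 lower, with a median of 0.03. That is 33.1% higher and 15.4% lower, against 19.0% and 19.8% over all genes. In the quantile normalized sample channel 29 were called higher and 9 lower, which is 21.3% and 6.62%, against 20.6% and 13.2% over all genes, so the share of higher calls lay near the background there. Of the other ER folding enzymes 8 of 20 were higher and 2 lower over the pool, and 6 higher and 1 lower in the sample channel. Those called over the pool included the prolyl isomerases Fkbp10, which acts on collagen, at 0.95 ± 0.07 and Fkbp11 at 0.70 ± 0.06. On the lower side was Mzb1, a chaperone of antibody-secreting cells, at -0.79 ± 0.07. Erp29, a folding factor related to the disulfide isomerases, was 0.39 ± 0.05 higher. All 4 were called in the same direction in the sample channel.

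N-glycosylation and glycan trimming genes gave 6 higher (37.5%) and 1 lower (6.25%) of 16, against 19.0% and 19.8% of all genes. In the sample channel they gave 4 higher (25.0%) and 0 lower, against 20.6% and 13.2%. The largest difference was in Prkcsh, the β subunit of glucosidase II, at 0.32 ± 0.01. The glycoprotein folding sensor Uggt1 and the oligosaccharyltransferase subunit Ostc were each 0.26 ± 0.04 higher, and Ddost of the same transferase was 0.20 ± 0.03 higher. Uggt1 and Ostc were also called in the sample channel, while Prkcsh (0.16) and Ddost (0.03) were not. The COPI coat, which carries KDEL receptors back to the ER, gave 4 higher and 0 lower of 10 (2 and 0 in the sample channel), with Copg2 at 0.26 ± 0.03 and Copz1 at 0.19 ± 0.02. Other COPII and exit genes gave 6 higher (26.1%) and 4 lower (17.4%) of 23, near the shares over all genes. In the sample channel these genes gave 3 higher (13.0%) and 0 lower, against 20.6% and 13.2%. The cargo receptor Surf4 was 0.28 ± 0.03 higher over the pool. Other targeting and translocation genes gave 4 higher (23.5%) and 6 lower (35.3%) of 17, and 3 higher (17.6%) and 2 lower (11.8%) in the sample channel. Sec63, the J-protein of the channel, was at -0.49 ± 0.05, and Tram2, a TRAM1 relative linked to collagen synthesis, was at 0.41 ± 0.03; the sample channel called Sec63 lower and did not call Tram2. Other degradation genes gave 4 higher (23.5%) and 3 lower (17.6%) of 17, which is near the background, with Rnf139 at -0.42 ± 0.11, Selenos at -0.25 ± 0.04 and Ube2j1 at 0.18 ± 0.02. Of these 3 genes the sample channel called only Selenos.

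Targets of the integrated stress response, which ATF4 and CHOP drive, moved in both directions. Of 20 tested, 11 were higher (55.0%) and 5 lower (25.0%) over the pool, against 19.0% and 19.8% of all genes. In the quantile normalized sample channel 5 were higher and 5 lower (25.0% each), against 20.6% and 13.2% of all genes. The higher ones over the pool were led by amino acid and folate genes: Psat1 of serine synthesis at 0.74 ± 0.06, the mitochondrial folate enzyme Mthfd2 at 0.63 ± 0.10 and the amino acid transporter Slc7a5 at 0.60 ± 0.10. The largest loss was in the transcription factor Atf5, at -0.74 ± 0.03 (adjusted p = 1.46e-05). The stress targets Chac1 (-0.55 ± 0.08), which degrades glutathione, and Ppp1r15a (-0.32 ± 0.06), which reverses the block on translation, fell as well over the pool, while Trib3 was 0.37 ± 0.08 and Atf3 0.48 ± 0.13 higher; these 4 were named after their values were seen. Of the other unfolded protein response regulators 2 of 13 were higher, Creb3l4 at 0.26 ± 0.04 and Creb3 at 0.12 ± 0.04, and none was called lower. That is 15.4% higher, below the 19.0% of all genes. In the sample channel 4 were higher (30.8%, against 20.6%) and none lower.

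**Figure D4:**
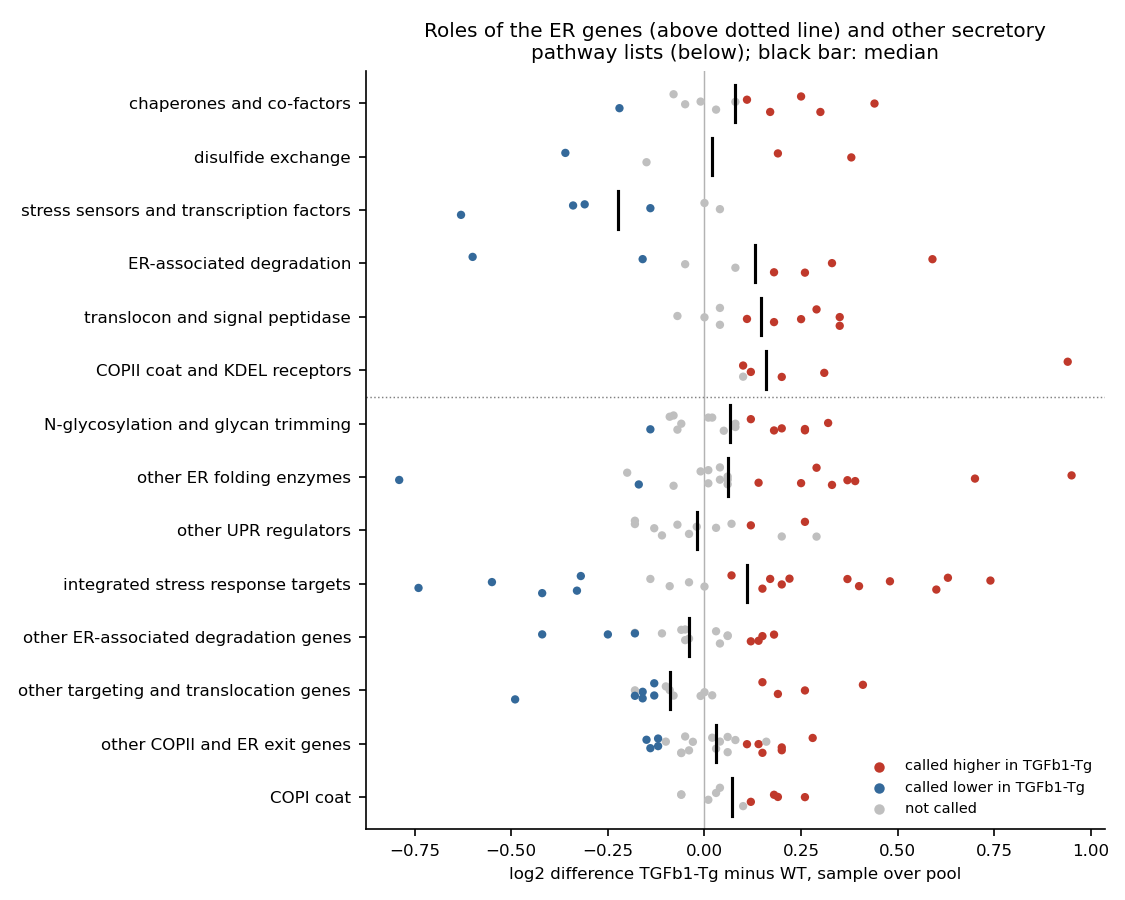
Log2 difference over the pool, TGFb1-Tg minus WT (x axis), for the genes of each role (above the dotted line) and of other secretory pathway lists (below it); each point is a gene, red called higher, blue called lower and grey not called, with the median as a black bar. Called points lie on both sides of 0 in most lists, all called stress sensors and transcription factors lie below 0, and no called gene of the translocon, the coat group or COPI does.

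The cell make-up of the lungs differed as well, and in whole lung a change in the number of cells of a type and a change in RNA per cell cannot be told apart. The marker counts below, over the pool, stand beside 19.0% called higher and 19.8% called lower over all genes. Markers of matrix-producing fibroblasts, whose ER handles collagen, gave 6 higher and 1 lower of 8, with sample intensities, summed over the probes measured on all arrays, of 113.83 to 119.78 in TGFb1-Tg lungs and 69.85 to 80.76 in WT lungs. Macrophage markers gave 9 higher of 10 (53.94 to 59.97 in TGFb1-Tg lungs, 23.38 to 28.62 in WT lungs), and all 6 markers of dividing cells were higher (12.99 to 15.82 in TGFb1-Tg lungs, 2.83 to 3.92 in WT lungs). Of 12 markers of plasma and B cells, which are rich in ER, 7 were lower and 1, Sdc1, was higher, but their summed sample intensities overlapped (12.82 to 15.54 in TGFb1-Tg lungs, 12.32 to 14.24 in WT lungs). Their summed pool intensities were 16.33 to 18.02 on TGFb1-Tg arrays and 13.21 to 13.56 on WT arrays.

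Markers of the other cell types moved in both directions. All 6 endothelial markers were lower (27.64 to 29.29 in TGFb1-Tg lungs, 37.05 to 44.36 in WT lungs). So were both club cell markers that could be tested (7.10 to 8.00 in TGFb1-Tg lungs, 15.03 to 22.89 in WT lungs). Of the goblet cell markers 3 of 7 were higher and 2 lower, with sums that overlapped (1.90 to 2.41 in TGFb1-Tg lungs, 2.09 to 2.75 in WT lungs). The sums hide large opposite differences, with Clca1 at 3.32 ± 0.36 and Muc5b at -1.14 ± 0.11, both named after their values were seen. The sample channel called both in the same directions. Muc5ac was under an intensity of 0.1 in every lung, and no other marker on these lists was. Alveolar type 2 markers gave 2 higher of 4 (36.05 to 40.92 in TGFb1-Tg lungs, 30.61 to 31.59 in WT lungs), and none of 4 alveolar type 1 markers was called (34.53 to 44.76 in TGFb1-Tg lungs, 21.03 to 37.12 in WT lungs). Of 6 T cell markers 1 was lower (4.13 to 5.12 in TGFb1-Tg lungs, 4.15 to 5.48 in WT lungs). The part of these shifts in the ER genes was not tested.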

How the data were processed

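The deposited table holds 1 sample and 1 pool intensity per probe and array, scaled by the authors and given in steps of 0.01, and a deposited p-value per probe, which was not used. Per the labels' protocols, Trizol RNA (100 ng) went through 2 rounds of amplification. The submitters' processing notes list Agilent Feature Extraction 8.5.1.1; how background and dyes were corrected is not given in the sources used here. The deposited log10 ratios matched sample over pool within 0.002 for at least 99.99% of probes, with medians of 0.

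Of 39341 probes, 9278 had no gene; names came from the file, updated through RefSeq. Probes of a gene were averaged. Log2 ratios were tested with lmFit and eBayes of limma 3.58.1 (R 4.3.3), TGFb1-Tg minus WT, with two-sided tests of genes with 2 or more values in each group, Benjamini-Hochberg over 25646 genes and a threshold of 0.05; 87 genes were not tested. On simulated data of 25302 genes for this comparison, 61.3% of 80 genes changed by 0.5, 95% of 80 changed by 1 and 97.5% of 40 changed by 2 were recovered, with 13 false calls. No other gene was changed in the simulation, whereas 4874 genes were called higher and 5083 lower in the data. Changes smaller than 0.5 were not simulated. The shares recovered therefore do not describe how well differences of the ER genes were detected.

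Alternatives were the sample channel alone, quantile normalization, an offset of 0.05, leaving out probes under 0.1, the brightest probe, the deposited log10 table, a replicate block, a trended robust fit and leaving out each array; the quantile normalized sample channel was added after the data were seen. All genes were given values; values per lung went to the sensors, Hspa5, Hsp90b1 and, per role, the 3 called genes with the largest difference and up to 2 against the role's majority, and other lists named up to 4 called genes. The genes and lists were chosen with earlier results of these data known. Same-numbered lungs did not deviate together (correlations -0.0265 to 0.0398). A planned search for protein endings was not run. Python 3.11.15 with pandas 2.3.3, numpy 2.4.6 and matplotlib 3.10.9 was used.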

Additional observations from a re-analysis of the deposited data

Results flagged for a closer look

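In 6 of 85 groups of 4 lungs, 1 lung lay far from the others of its group; chance gives about 1 in 20 such groups. In TGFb1-Tg lungs, Hspa5 was -0.09 in lung 2 against 0.00 in the others, where its bright probe was missing from 2. Canx was -0.02 in TGFb1-Tg lung 1 against 0.12 to 0.15. Hyou1 was 0.22 in TGFb1-Tg lung 1 against 0.14 to 0.15. Pdia5 was -0.27 in TGFb1-Tg lung 3 against -0.37 to -0.36. Kdelr2 was 0.06 in TGFb1-Tg lung 3 against 0.08 to 0.09. Among WT lungs, Eif2ak3 was -0.04 in lung 1 against 0.06 to 0.07. Groups whose 4 ratios were equal could not be tested for this.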

How the results depend on the processing

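The counts of 22 higher and 8 lower stayed within 1.5 times under the offset, without dim probes, with the brightest probe, with the deposited table and in the trended fit; without dim probes Ern1 has no value, and 27.4% and 29.4% of 17055 genes were called higher and lower. Leaving out 1 array gave 19 to 21 higher and 5 to 8 lower. The sample channel centred on its median gave 36 higher and 0 lower (0 also at an unadjusted p under 0.05), with 9044 genes higher in all, and there the median shift was -0.25 for genes under an intensity of 0.1 and 0.48 for those at 1 or more; quantile normalization of that channel gave 3 lower, with 3388 genes lower. Quantile normalization of the ratios, which forces every array to one spread, gave 7 higher and 0 lower (3 at an unadjusted p under 0.05), with 1602 genes higher and 1478 lower. With the replicate number as a block, 19 genes were higher and 6 lower, over 4392 and 4546 in all; the numbers do not pair the lungs.

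Signs turned as follows, and the cause was not tested. In the sample channel centred on its median: Dnajb9 0.57, Creld2 0.68, Manf 0.41, Pdia5 0.09, Xbp1 0.42, Atf4 0.17, Atf6 0.27, Syvn1 0.23, Derl1 0.44, Spcs2 0.52, Tram1 0.53, Selenos 0.16, Ufd1 0.23 and Sec63 0.04. In that form Dnajb9 and Xbp1, called lower over the pool, were called higher. In the quantile normalized sample channel: Dnajb9 0.11, Creld2 0.22, Manf 0.41, Xbp1 0.15, Syvn1 0.05, Spcs2 0.05 and Tram1 0.24. With quantile normalized ratios: Hspa5 0.02 and Eif2ak3 -0.04. Without 1 array Hspa5 ran from -0.04 to 0.01, Hsp90b1 from -0.01 to 0.07 and Tram1 from -0.03 to 0.02. Bright probes missing from arrays limit Hspa5 and Sec61b, and the steps of 0.01 limit Hyou1, Ern1 and the dim probes of Manf and Syvn1.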
